A study of Homo sapiens with 27 samples.

Results

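TENM4, SIPA1L1 and IGSF10 were followed in every sample of a GapmeR experiment in REH cells. These 3 of 60619 genes were chosen by the counts of one comparison, in which they had the smallest adjusted p-values among genes lower with lnc-NKX2-3-1 GapmeR1 than with lnc-NKX2-3-1 GapmeR2. Because the values from these GapmeRs chose the genes, they are described below without a test, and tests are given only for other treatments. All 3 genes passed the filter on low counts in every comparison.

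REH is an established ETV6/RUNX1-positive B-cell precursor acute lymphoblastic leukemia line, and all samples share this 1 line. The 27 samples fell into 10 groups, each harvested after 72 h. Medium alone (n = 2) and a non-targeting GapmeR, NTC (n = 3), formed the 5 controls. GapmeRs at 10 µM against 4 lncRNAs, with GapmeR1 and GapmeR2 for each, formed the other 8 groups. Groups had 3 samples except lnc-NKX2-3-1 GapmeR1 (replicates 1 and 2) and lnc-ASTN1-1 GapmeR2 (replicates 1 and 3). Per the methods of the study, GapmeRs entered by passive uptake and replicates were treated on different days.

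An LNA GapmeR is an antisense oligonucleotide with a central DNA stretch between locked nucleic acid ends. It pairs with RNA and recruits RNase H, which cuts the paired RNA strand, in the nucleus as well as in the cytoplasm. TENM4 encodes a teneurin, a large type II transmembrane protein that binds latrophilin receptors on neighboring cells. SIPA1L1 encodes a GTPase-activating protein that switches off Rap, a small GTPase of integrin-mediated adhesion. IGSF10 encodes a large secreted member of the immunoglobulin superfamily with leucine-rich repeats.

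The GapmeRs that the results turn on are shown 5′ to 3′, as designed by the study. Capitals mark the longest stretch whose complement stood unbroken in the TENM4 gene body on the transcribed strand.

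lnc-NKX2-3-1 GapmeR1: TGCTCTGTGCggattg

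lnc-NKX2-3-1 GapmeR2: CTGATTTTTAGTagtg

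lnc-RTN4R-1 GapmeR1: GCATTCATGGGttaag

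lnc-RTN4R-1 GapmeR2: TGCTGAGACATCtagg

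lnc-TIMM21-5 GapmeR1: aaTTTTGCATTTGGTa

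lnc-ASTN1-1 GapmeR1: taaTCTGCCAGGAGtg

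NTC: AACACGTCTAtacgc

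The lnc-NKX2-3-1 GapmeRs pair with adjoining sites in an exon of that lncRNA. The site of GapmeR1, caatccgcacagagca, lay at chr10:99528207-99528222 (GRCh38, plus strand), and that of GapmeR2, cactactaaaaatcag, at chr10:99528191-99528206. Both left the lncRNA at a similarly low count, with 4 and 1 reads with GapmeR1 and 4, 3 and 0 with GapmeR2, against 6 to 23 in the controls. At so few reads, a difference in knockdown between these GapmeRs was not detectable.

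Sequencing depth was 14627110 to 22750945 gene counts per sample. Of the 10 B-cell precursor markers, 9 were above 1 CPM (a count scaled to library size) in every sample, and VPREB1 was at 0. T cell markers summed to at most 0.535 CPM and erythroid markers to at most 0.0574 CPM. Each lncRNA was below every control in all samples of its own GapmeRs, with 15.2% (lnc-NKX2-3-1), 25.3% (lnc-RTN4R-1), 15.7% (lnc-TIMM21-5) and 45.1% (lnc-ASTN1-1) of the control mean remaining. The value for lnc-NKX2-3-1 is rough, since its own GapmeRs left at most 4 reads per sample. Its control level also differed, with a mean of 1.09 CPM in medium and 0.549 CPM in NTC.

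In the controls, TENM4 was at 126.2 ± 8.62 CPM (SD, n = 5), SIPA1L1 at 88.9 ± 2.11 and IGSF10 at 241.9 ± 9.49, with library sizes scaled by TMM. Per kilobase of exon, the control levels were 7.69 ± 0.525 CPM for TENM4, 7.16 ± 0.170 for SIPA1L1 and 26.2 ± 1.03 for IGSF10. IGSF10 was thus the most abundant of the 3 per length. Between NTC and medium, the log2 fold changes were -0.04 (SE 0.0969) for TENM4, 0.02 (SE 0.0888) for SIPA1L1 and -0.02 (SE 0.0915) for IGSF10. Of the 3 genes, 0 were called by edgeR in this comparison, 0 by DESeq2 and 0 at an unadjusted p under 0.05, where edgeR called 0.0% of all genes. With the replicate number as a block, 0 of the 3 were called and 1.53% of all genes.

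The genes lie on different chromosomes and differ in size. TENM4 (ENSG00000149256) spans chr11:78652829-79441030 on the minus strand, with 44 exon blocks, and its 788.2 kb exceed the length of 99.66% of the 16024 tested genes in the annotation. SIPA1L1 (ENSG00000197555) spans chr14:71320449-71741229 on the plus strand, with 39 exon blocks over 420.8 kb, longer than 98.41%. IGSF10 (ENSG00000152580) is an ordinary 35.7 kb, at chr3:151425384-151461061 on the minus strand with 11 exon blocks, longer than 60.25%. Counts on the opposite strand were at most 8, 5 and 13 reads per sample for TENM4, SIPA1L1 and IGSF10.

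TENM4, the teneurin, was lowest with lnc-NKX2-3-1 GapmeR1, at 19.3 and 17.8 CPM. With lnc-NKX2-3-1 GapmeR2 it was at 120.8, 119.8 and 117.7 CPM, and in the 5 controls between 117.0 and 138.3 CPM. The GapmeR1 samples thus stood far below all others, at 14.7% of the control mean, whereas the GapmeR2 samples lay within the range of the controls. SIPA1L1, the Rap regulator, was at 14.8 and 12.2 CPM with GapmeR1. With GapmeR2 it was at 85.3, 87.1 and 89.8 CPM, beside 87.2 to 92.4 CPM in the controls. SIPA1L1 was thus at 15.2% of the control mean with GapmeR1 and at 98.4% with GapmeR2. IGSF10, the secreted protein gene, was at 50.8 and 46.0 CPM with GapmeR1. With GapmeR2 it was at 227.0, 236.0 and 255.0 CPM, and in the controls between 226.6 and 252.6 CPM. IGSF10 kept 20.0% of the control mean with GapmeR1, the highest remainder of the 3.

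**Figure D1:**
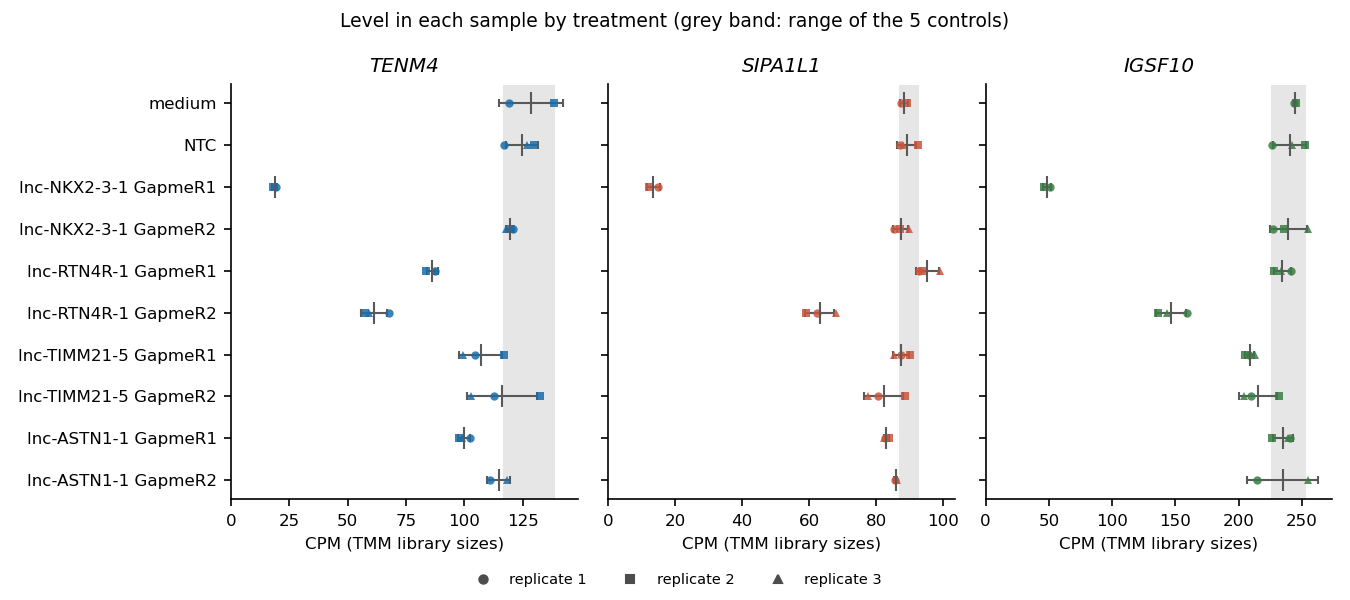
CPM of TENM4, SIPA1L1 and IGSF10 (x axis, TMM library sizes) in each of the 27 samples by treatment (y axis). Marker shape gives the replicate number, vertical ticks the group mean, bars the SD and the grey band the range of the 5 controls. All 3 genes were lowest with lnc-NKX2-3-1 GapmeR1 and next lowest with lnc-RTN4R-1 GapmeR2.

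Between the lnc-NKX2-3-1 GapmeRs, the log2 fold change was -2.68 for TENM4 (SE 0.0956), -2.69 for SIPA1L1 (SE 0.113) and -2.30 for IGSF10 (SE 0.0979). These are the values that chose the genes, in a comparison where 8.98% of 15375 genes were called lower, so nothing further is read from them. Just outside the choice was MCM3AP, which encodes a factor of mRNA export, at -2.08 (SE 0.0944), with 59.1 CPM for GapmeR1 and 250.1 CPM for GapmeR2. The choice went by p-value: by size of decrease, SIPA1L1 ranked 35, TENM4 39 and IGSF10 71 of the same genes. With the replicate number as a block, the p-value ranks became 5 for TENM4, 8 for SIPA1L1 and 1 for IGSF10. Against the controls, GapmeR1 gave -2.75 for TENM4, -2.71 for SIPA1L1 and -2.31 for IGSF10, and GapmeR2 gave -0.08, -0.02 and -0.01 in the same order. For scale, 18.6% of 16268 genes were below every control in both GapmeR1 samples. In bulk RNA, fewer cells that express a gene and less of its RNA per cell cannot be told apart.

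The lnc-RTN4R-1 GapmeRs took no part in the choice, although TENM4 was known to be lower with both when the genes were taken up. TENM4 was at 87.6, 83.4 and 87.6 CPM with lnc-RTN4R-1 GapmeR1. It was at 67.5, 57.5 and 58.9 CPM with lnc-RTN4R-1 GapmeR2. Every one of these 6 samples lay below every control, as did 3.48% of all genes with GapmeR1 and 8.01% with GapmeR2, and the GapmeR2 samples lay below all of GapmeR1. The log2 fold change against the controls was -0.55 with GapmeR1 (SE 0.0653, edgeR adjusted p = 0.000747) and -1.04 with GapmeR2 (SE 0.0798, adjusted p = 2.54e-06).

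SIPA1L1 was at 92.9, 93.8 and 99.2 CPM with lnc-RTN4R-1 GapmeR1, above every control in 3 of 3 samples, as were 3.96% of all genes. Its log2 fold change of 0.10 did not pass the test (SE 0.0538, edgeR adjusted p = 0.611). With GapmeR2 it was at 62.3, 59.2 and 67.9 CPM. These samples lay below every control, and SIPA1L1 fell by 0.49 on the log2 scale (SE 0.0661, adjusted p = 0.000415).

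IGSF10 was at 241.6, 228.0 and 233.7 CPM with lnc-RTN4R-1 GapmeR1, within the range of the controls. Its log2 fold change there was -0.04 (SE 0.0565, edgeR adjusted p = 0.929). With lnc-RTN4R-1 GapmeR2 it was at 159.1, 136.5 and 143.5 CPM, all below every control. The log2 fold change was -0.72 (SE 0.0701, adjusted p = 2.33e-05), so that 60.5% of the control mean remained.

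Thus, 1 of the 3 genes was called lower with lnc-RTN4R-1 GapmeR1, where 0.579% of all tested genes were, and 3 of 3 with lnc-RTN4R-1 GapmeR2, where 3.85% were. The direct comparison of GapmeR1 with GapmeR2 called all 3 genes, beside 5.92% of all genes in either direction. TENM4 was higher with GapmeR1 by 0.49 (SE 0.0781, edgeR adjusted p = 0.00615), SIPA1L1 by 0.60 (SE 0.0735, adjusted p = 0.00160) and IGSF10 by 0.68 on the log2 scale (SE 0.0743, adjusted p = 0.000745). These calls held when each sample was left out in turn. With replicates 1 and 2 only, an alternative chosen after seeing the data, GapmeR2 against the controls gave -1.01 for TENM4, -0.55 for SIPA1L1 and -0.71 for IGSF10, all still called.

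lnc-NKX2-3-1, the target of the GapmeRs that chose the genes, had 12 reads in each sample with lnc-RTN4R-1 GapmeR1 and 10 to 16 with lnc-RTN4R-1 GapmeR2, inside the 6 to 23 reads of the controls, and a difference was not detectable at so few reads. A myeloid marker list was higher with the GapmeRs with which all 3 genes were lowest. Its summed level was 293.7 to 449.2 CPM with lnc-RTN4R-1 GapmeR2 and 164.1 to 196.6 CPM with lnc-NKX2-3-1 GapmeR1, against 86.2 to 133.4 CPM in the controls. It overlapped the controls with lnc-RTN4R-1 GapmeR1 (82.5 to 119.5 CPM) and lnc-ASTN1-1 GapmeR1 (100.4 to 152.4 CPM), with which TENM4 was also called lower. Of its 4 genes, 1 was above 1 CPM in every sample, MPO, whereas LYZ reached at most 0.35 CPM, CD14 0.92 CPM and CSF1R 2.59 CPM. The part of this in the results was not tested.

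When both lnc-RTN4R-1 GapmeRs were pooled, as in the design of the study, TENM4 alone of the 3 was called lower (-0.77, SE 0.113, edgeR adjusted p = 0.00735), where 0.201% of all genes were. The pooled log2 fold change was -0.16 for SIPA1L1 (SE 0.128, adjusted p = 0.732) and -0.34 for IGSF10 (SE 0.149, adjusted p = 0.435). Leaving out 1 sample moved the value of SIPA1L1 between -0.24 (without lnc-RTN4R-1 GapmeR1 replicate 3) and -0.0896 (without lnc-RTN4R-1 GapmeR2 replicate 2), and it was called in 0 of the 11 fits. For these genes the pooled value averages GapmeRs that differed by the direct test above. With NTC only as controls, TENM4 was no longer called (-0.76, adjusted p = 0.111). In one fit of all samples, SIPA1L1 (-0.20, adjusted p = 0.0146) and IGSF10 (-0.39, adjusted p = 3.06e-05) were called as well.

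**Figure D2:**
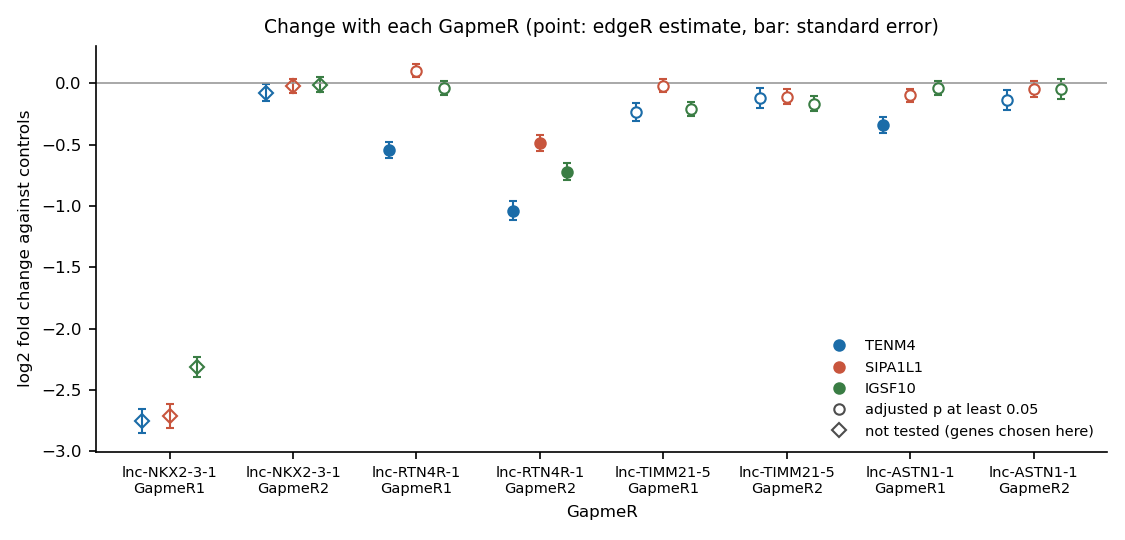
Log2 fold change against the 5 controls (y axis) for each GapmeR (x axis), with edgeR estimates as points and standard errors as bars. Filled circles passed an adjusted p-value of 0.05, open circles did not, and diamonds are the untested values of the lnc-NKX2-3-1 GapmeRs. With lnc-RTN4R-1 GapmeR2 all 3 genes were called lower, at -1.04 (TENM4), -0.49 (SIPA1L1) and -0.72 (IGSF10).

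With the lnc-TIMM21-5 GapmeRs, IGSF10 with GapmeR1 was the 1 gene of the 3 whose samples all lay outside the range of the controls. TENM4 was at 104.5, 117.0 and 99.3 CPM with GapmeR1 and at 112.6, 132.2 and 102.8 CPM with GapmeR2, overlapping the controls in both groups. SIPA1L1 lay between 85.3 and 90.0 CPM with GapmeR1 and between 77.5 and 88.8 CPM with GapmeR2, also overlapping. IGSF10 with GapmeR1 was at 208.1, 204.9 and 212.7 CPM, below every control in 3 of 3 samples, where 2.16% of all genes were. With GapmeR2 it was at 210.0, 232.1 and 203.9 CPM, which overlapped the controls.

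Against the controls, edgeR called 0 of the 3 genes with lnc-TIMM21-5 GapmeR1, where it called 0.079% of all genes lower. Here and below, the share of all genes is not given for DESeq2 or for an unadjusted p under 0.05. DESeq2 called 0, and 2 of the 3 had an unadjusted p under 0.05. These were TENM4 (-0.24, SE 0.0727, adjusted p = 0.733) and IGSF10 (-0.21, SE 0.0562, adjusted p = 0.480). With the replicate block both were called, TENM4 at -0.23 (adjusted p = 0.000632) and IGSF10 at -0.21 (adjusted p = 0.000659), while the share of all genes called lower rose to 1.35%. SIPA1L1 was at -0.02 without the block and at -0.02 with it (adjusted p = 0.912). With lnc-TIMM21-5 GapmeR2, edgeR called 0 of 3 (0.0593% of all genes lower), DESeq2 0 and the replicate block 0 (0.29% of all genes lower), and IGSF10 alone had an unadjusted p under 0.05 (-0.17, SE 0.0642). Between GapmeR1 and GapmeR2 of lnc-TIMM21-5, 0 of 3 genes were called by edgeR, by DESeq2 or at an unadjusted p under 0.05, where edgeR called 0.0784% of all genes. With both pooled, edgeR and DESeq2 called 0 of 3 (0.00665% of all genes lower) and 2 had an unadjusted p under 0.05. The replicate block, which called 0.592% of all genes lower, called the same 2, TENM4 (-0.17, adjusted p = 0.0214) and IGSF10 (-0.19, adjusted p = 0.00227).

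With lnc-ASTN1-1 GapmeR1, TENM4 was at 102.5, 97.7 and 98.8 CPM, below every control in 3 of 3 samples. Its log2 fold change was -0.34 (SE 0.0652, edgeR adjusted p = 0.0336), and it was the 1 gene of the 3 called there, beside 0.678% of all genes called lower. This call was not stable. It was lost when any of 6 of the 8 samples was left out (each lnc-ASTN1-1 GapmeR1 sample, each medium sample or NTC replicate 2), with adjusted p-values between 0.0242 and 0.204 over the 8 fits. Those fits gave log2 fold changes between -0.37 and -0.31. It was also lost with NTC only (-0.32, adjusted p = 0.165) and with replicates 1 and 2 only (-0.33, adjusted p = 0.0516). DESeq2 (adjusted p = 0.00109) and the replicate block (adjusted p = 9.32e-06, 3.37% of all genes lower) kept it.

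SIPA1L1 was at 82.7, 83.9 and 82.5 CPM with lnc-ASTN1-1 GapmeR1, below every control but by little (-0.10, SE 0.0535, edgeR adjusted p = 0.860). In 3.25% of all genes, all 3 samples lay below every control. IGSF10 was at 240.6, 226.0 and 239.0 CPM, overlapping the controls (-0.04, SE 0.0581, adjusted p = 1.0).

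With lnc-ASTN1-1 GapmeR2, TENM4 was at 111.0 and 118.1 CPM, SIPA1L1 at 85.5 and 86.3 CPM and IGSF10 at 214.8 and 254.5 CPM. SIPA1L1 lay just below all controls, as did 3.2% of all genes, and the others overlapped them. None of the 3 genes was called: edgeR, DESeq2 and an unadjusted p under 0.05 each gave 0, where edgeR called 0.013% of all genes lower. Between GapmeR1 and GapmeR2 of lnc-ASTN1-1, edgeR called 0 of 3 (0.146% of all genes in either direction) and DESeq2 0, and 1 had an unadjusted p under 0.05. That gene was TENM4 (-0.20, SE 0.0771, adjusted p = 0.999), which the replicate block called at -0.19 (adjusted p = 0.0173) beside 4.29% of all genes. With both pooled, edgeR and DESeq2 called 0 of 3 (0.0136% of all genes lower) and 1 had an unadjusted p under 0.05. It was again TENM4, at -0.26 (SE 0.0647, adjusted p = 0.573), called with the block (-0.26, adjusted p = 0.0487) beside 0.59% of all genes lower.

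Ordering the 10 groups by level showed where neighbors separated. With lnc-NKX2-3-1 GapmeR1, which chose the genes, left aside, lnc-RTN4R-1 GapmeR2 was lowest for all 3 genes, with every sample below every sample of the other 8 groups, as in 3.1% of all genes. TENM4 had further steps, with lnc-RTN4R-1 GapmeR1 (86.2 ± 2.42 CPM) below lnc-ASTN1-1 GapmeR1 (99.7 ± 2.53 CPM) and no overlap. From there up to medium (128.6 ± 13.6 CPM), each group overlapped the next. For SIPA1L1, lnc-RTN4R-1 GapmeR1 (95.3 ± 3.40 CPM) was highest and did not overlap NTC (89.2 ± 2.81 CPM). The lnc-ASTN1-1 GapmeRs, at 85.9 ± 0.518 CPM (GapmeR2) and 83.0 ± 0.770 CPM (GapmeR1), did not overlap each other, and the other neighbors did. Their difference for SIPA1L1 did not pass the direct test (-0.05, SE 0.0757, edgeR adjusted p = 0.999). How many of all genes separate between such neighbors was not counted, so these steps are a description. For IGSF10, each of the 8 upper groups, from 208.5 ± 3.90 CPM (lnc-TIMM21-5 GapmeR1) to 244.3 ± 0.960 CPM (medium), overlapped its neighbor among them.

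Since replicates were treated on different days, each sample was also set against the NTC sample of the same number. With lnc-RTN4R-1 GapmeR2, TENM4 was at 57.7%, 44.3% and 46.4% of that NTC sample in replicates 1, 2 and 3. SIPA1L1 was at 71.5%, 64.1% and 77.2%, and IGSF10 at 70.2%, 54.0% and 59.3%. All 9 values were thus below 100% by more than the medium samples departed from it, which were at 96.5% to 107.5% over the 3 genes. With lnc-RTN4R-1 GapmeR1, TENM4 was at 74.9%, 64.2% and 68.9%. With lnc-NKX2-3-1 GapmeR1 the values were 16.5% and 13.7% for TENM4, 16.9% and 13.2% for SIPA1L1, and 22.4% and 18.2% for IGSF10. With lnc-ASTN1-1 GapmeR1, TENM4 was at 87.7%, 75.2% and 77.8%, and SIPA1L1 at 94.8%, 90.8% and 93.8%. With lnc-TIMM21-5 GapmeR1, TENM4 was at 89.3%, 90.1% and 78.2% and IGSF10 at 91.8%, 81.1% and 87.9%. With lnc-TIMM21-5 GapmeR2, IGSF10 was at 92.7%, 91.9% and 84.3% and SIPA1L1 at 92.3%, 96.0% and 88.1%. With lnc-ASTN1-1 GapmeR2, TENM4 was at 94.9% and 93.0% and SIPA1L1 at 98.0% in both. In these cases with the lnc-ASTN1-1 and lnc-TIMM21-5 GapmeRs every sample was below its own NTC sample. They share the same NTC samples, so they are not independent of each other. Without the block, edgeR called only TENM4 with lnc-ASTN1-1 GapmeR1 among them. The remaining cases with the same GapmeRs reached above the NTC sample of the same number. SIPA1L1 was at up to 100.3% with lnc-TIMM21-5 GapmeR1 and TENM4 at up to 101.8% with lnc-TIMM21-5 GapmeR2. IGSF10 was at up to 106.2% with lnc-ASTN1-1 GapmeR1 and 105.2% with lnc-ASTN1-1 GapmeR2. How many of all genes lay below in every sample was not counted.

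The balance among the genes was examined, after the values had been seen, as the log2 ratio of a pair of genes within a sample, for each GapmeR against the controls. With lnc-RTN4R-1 GapmeR1 the ratio of TENM4 to SIPA1L1 was lower than in the controls by 0.65 and that of TENM4 to IGSF10 by 0.50 on the log2 scale. With lnc-RTN4R-1 GapmeR2 they were lower by 0.55 and 0.32. With lnc-ASTN1-1 GapmeR1 they were lower by 0.24 and 0.30. The ratio of SIPA1L1 to IGSF10 was higher than in the controls by 0.23 with lnc-RTN4R-1 GapmeR2 and by 0.19 with lnc-TIMM21-5 GapmeR1. With the latter, the ratio of TENM4 to SIPA1L1 was lower by 0.22. In each of these 9 cases all 3 samples lay outside the range of the controls, and the two-sided exact permutation test gave p = 0.0357, the smallest possible with 3 samples against 5. Adjusted over the 18 ratios tested, this became 0.0714, so none passed 0.05, and the balance was not tested between GapmeRs. With lnc-NKX2-3-1 GapmeR1, untested, TENM4 to SIPA1L1 was at -0.03 against the controls, TENM4 to IGSF10 at -0.44 and SIPA1L1 to IGSF10 at -0.41. These values rest on samples that chose the genes, so nothing is read from them.

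**Figure D3:**
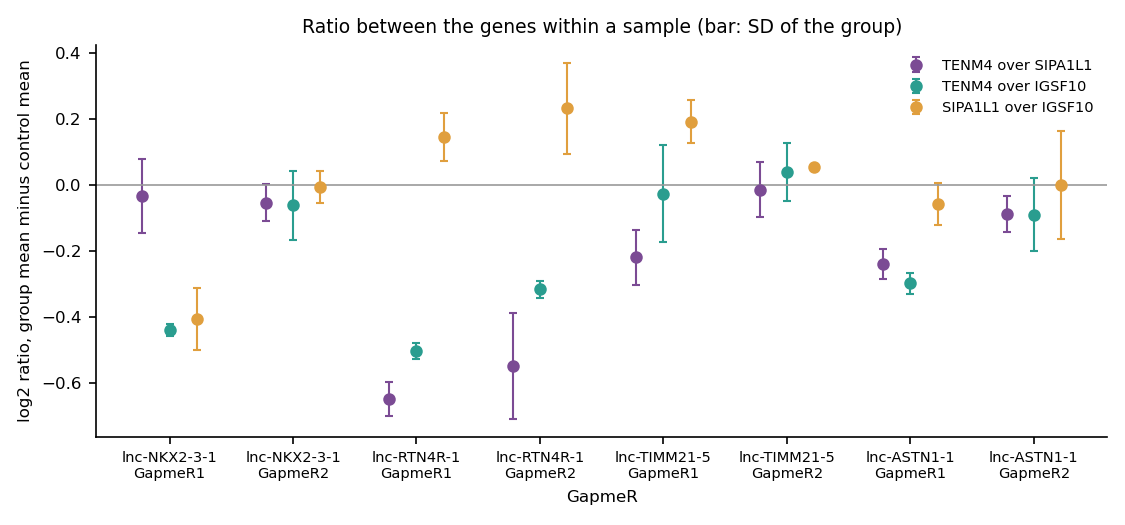
Log2 ratio between pairs of the genes within a sample, as the group mean minus the mean of the 5 controls (y axis), for each GapmeR (x axis), with the SD of the group as bars. The ratio of TENM4 to SIPA1L1 stood at -0.65 with lnc-RTN4R-1 GapmeR1 and -0.55 with lnc-RTN4R-1 GapmeR2, but at -0.03 with lnc-NKX2-3-1 GapmeR1.

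The GapmeR sequences were searched in the gene bodies of the 3 genes, exons and introns, on the transcribed strand of GRCh38. The search was on genomic sequence, so a site that splicing joins from separate exons would be missed: lnc-ASTN1-1 GapmeR1 had no unbroken site even in its own target, where its longest run was 12 bases and its best site, with 2 mismatches, lay across an exon-intron boundary. No gene held a site with 0 or 1 mismatch for any of the 9 GapmeRs. For lnc-NKX2-3-1 GapmeR1 none had a site with 2 mismatches either, which 0.518% of the 16024 tested genes had. Its longest unbroken complement was 10 bases in TENM4 (gcacagagca, intron, chr11:79406978-79406987) and 10 bases in SIPA1L1, with the same letters, also in an intron. It was 8 bases in IGSF10 (acagagca, intron). A run of 10 or more was found in 12.5% of all tested genes, and in 81.5% of the 54 genes at least as long as TENM4. A run of 8 or more, as in IGSF10, was found in 76.3% of all tested genes. Among genes at least as long, runs as long as those in SIPA1L1 and IGSF10 were found in 73.7% and 99.4%.

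For lnc-NKX2-3-1 GapmeR2 the median longest run over all tested genes was 11 bases, against 8 for lnc-NKX2-3-1 GapmeR1. Run lengths of these GapmeRs are thus not directly comparable. A run of 12 or more, as in TENM4, was present in 7.48% of all tested genes and in 75.9% of those at least as long as TENM4. Runs for lnc-NKX2-3-1 GapmeR2 stood in each of the 3 genes. They were 12 bases in TENM4 (actaaaaatcag), 11 in SIPA1L1 (ctactaaaaat) and 10 in IGSF10 (ctactaaaaa), all in introns, and a run of 11 or more was present in 69.0% of all tested genes. SIPA1L1 held an intronic site for this GapmeR with 2 mismatches, cacAaTtaaaaatcag at chr14:71452128-71452143, with the mismatched bases in capitals.

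For lnc-RTN4R-1 GapmeR2, TENM4 held a run of 12 bases within an intronic site with 2 mismatches. The site was TctGgatgtctcagca at chr11:79193893-79193908 on the minus strand, with the mismatched bases in capitals. Such a run was present in 1.55% of all tested genes and in 29.6% of those at least as long as TENM4, and a site with at most 2 mismatches in 1.77% of all. IGSF10 held 11 bases of the same stretch in an intron (atgtctcagca), as did 6.42% of all tested genes and 13.8% of the 6369 at least as long as IGSF10. SIPA1L1 held 10 (tgtctcagca), as did 22.1% of all and 95.3% of the 255 at least as long as SIPA1L1.

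For lnc-RTN4R-1 GapmeR1, the run was 11 bases in TENM4 (cccatgaatgc), 10 in SIPA1L1 and 8 in IGSF10. A run of 11 or more was present in 5.19% of all tested genes and in 75.9% of those at least as long as TENM4. For lnc-ASTN1-1 GapmeR1, TENM4 held 11 bases (8.9% of all genes and 77.8% of those at least as long as TENM4). For lnc-TIMM21-5 GapmeR1 it held 13 bases within an intronic site with 2 mismatches, CaccaaatgcaaaaGt at chr11:79114316-79114331. A run this long was present in 0.967% of all genes and in 18.5% of those at least as long as TENM4. IGSF10 held an intronic site with 2 mismatches for lnc-TIMM21-5 GapmeR1 too, taccaGaAgcaaaatt at chr3:151429568-151429583, and 4.66% of all genes held a site this good. TENM4 also held 3 intronic sites with 2 mismatches for lnc-ASTN1-1 GapmeR2, with which it was not called, and the 10-base run for NTC shown above. A match of letters is a description and shows neither pairing nor cutting in the cell.

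**Figure D4:**
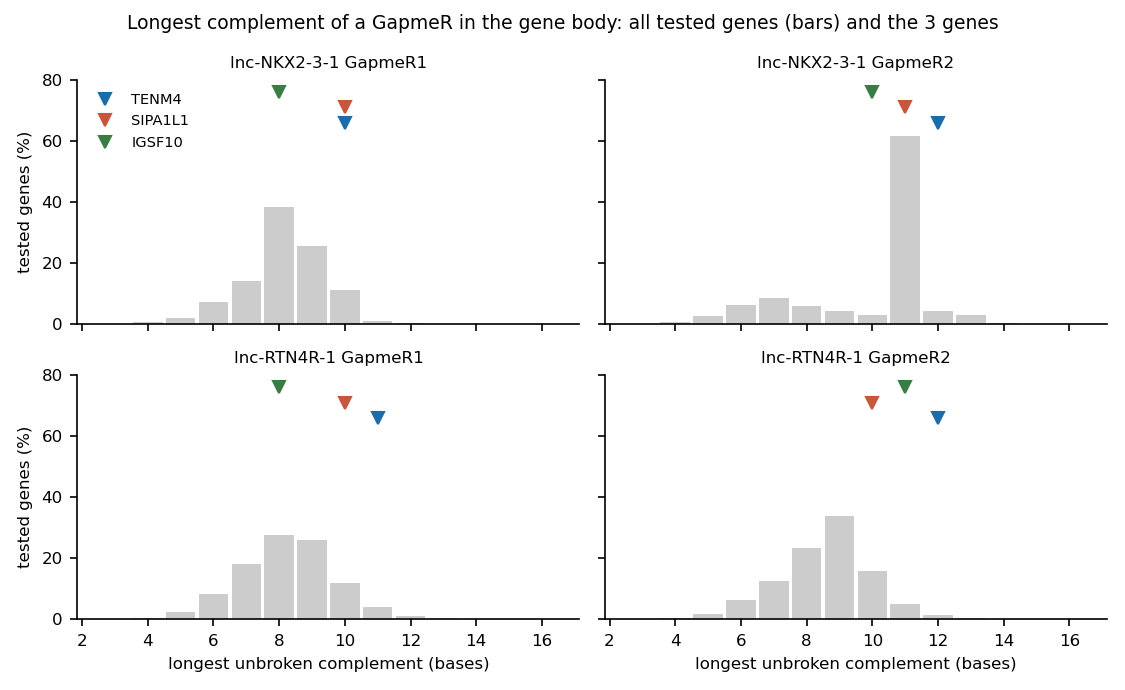
Share of the 16024 tested genes (y axis, percent) by the longest unbroken complement of a GapmeR in the gene body (x axis, bases), with triangles at the 3 genes; the height of a triangle has no meaning. For lnc-NKX2-3-1 GapmeR1 the genes held runs of 8 to 10 bases, where the median over all tested genes was 8. For lnc-NKX2-3-1 GapmeR2 they held runs of 10 to 12 bases, where that median was 11.

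The nearest expressed protein-coding gene on each side of the 3 loci was examined. With lnc-NKX2-3-1 GapmeR1, 2 of the 5 that could be tested elsewhere were lower than in the controls, DPF3 (log2 fold change -1.13) and SUCNR1 (-0.64), both untested. This GapmeR chose the genes, and the share of all genes with a lower log2 fold change is not given. By another measure, 18.6% of all genes lay below every control in both of its samples. NARS2, an asparaginyl-tRNA synthetase gene 77635 bases from TENM4, was at 48.7 CPM in the controls and 54.7 CPM with lnc-NKX2-3-1 GapmeR1, and its log2 fold change with lnc-RTN4R-1 GapmeR2 was 0.06 (SE 0.0725, edgeR adjusted p = 0.724). PRCP, a carboxypeptidase gene on the other side of TENM4, was at 44.6 and 45.1 CPM. PCNX1, before SIPA1L1, was at 103.8 CPM in the controls and 110.4 CPM with lnc-NKX2-3-1 GapmeR1.

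DPF3, which encodes a subunit of the BAF chromatin remodeling complex 867805 bases after SIPA1L1, was at 30.9 CPM in the controls and 14.0 CPM with lnc-NKX2-3-1 GapmeR1. It fell by 0.38 on the log2 scale with lnc-RTN4R-1 GapmeR2 (SE 0.0863, edgeR adjusted p = 0.0160) and was at 0.27 with lnc-RTN4R-1 GapmeR1 (SE 0.0698, adjusted p = 0.104), the signs of SIPA1L1 with both. The signs were also shared with the lnc-ASTN1-1 GapmeRs. With the lnc-TIMM21-5 GapmeRs they were opposite, with DPF3 at 0.18 (GapmeR1) and 0.04 (GapmeR2), and neither gene was called. SUCNR1, the succinate receptor gene after IGSF10, was at 26.1 CPM in the controls and 16.7 CPM with lnc-NKX2-3-1 GapmeR1, and at -0.24 with lnc-RTN4R-1 GapmeR2 (SE 0.0921, adjusted p = 0.156). P2RY12, a purinergic receptor gene before IGSF10, had 2 to 14 reads per sample and did not pass the filter of these comparisons. MED12L overlaps IGSF10 over 11689 bases on the opposite strand and had 1 to 21 reads per sample. Without strand, the IGSF10 counts were 86.7% to 89.4% of the stranded ones, and no call on IGSF10 changed with them.

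Of the other teneurins and their receptors, 5 of 9 were expressed enough to be tested. TENM4 was the 1 teneurin at an appreciable level: TENM2 was at 0.510 CPM in the controls, TENM1 at 0.0455 CPM and TENM3 at 0.0126 CPM. With lnc-RTN4R-1 GapmeR2, 1 of the 5 fell and 0 rose, where 3.85% of all genes were called lower and 2.76% higher, with a median log2 fold change of -0.05 beside 0.01 over all genes. That gene was ADGRL3, the gene of a latrophilin receptor, which fell by 0.92 (SE 0.128, edgeR adjusted p = 0.000536), from 7.29 CPM in the controls to 3.85 CPM. With lnc-RTN4R-1 GapmeR1 ADGRL3 was at 9.50 CPM (adjusted p = 0.115), and with lnc-NKX2-3-1 GapmeR1 at 2.39 CPM, untested. In the other 5 single-GapmeR comparisons edgeR called 0 of the 5, with 0 to 3 at an unadjusted p under 0.05. With the replicate block, 3 of the 5 were called with lnc-RTN4R-1 GapmeR2 (1 higher, 2 lower), 2 with lnc-RTN4R-1 GapmeR1 (both higher), 3 with lnc-ASTN1-1 GapmeR1 (2 higher, 1 lower) and 0 elsewhere. The block raised the shares of all genes as well. It called 12.0% of them higher and 10.4% lower with lnc-RTN4R-1 GapmeR2, 5.97% higher and 3.42% lower with lnc-RTN4R-1 GapmeR1, and 1.5% higher and 3.37% lower with lnc-ASTN1-1 GapmeR1.

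Of 23 other Rap pathway genes, all were tested. With lnc-RTN4R-1 GapmeR2, 2 rose and 1 fell (2.76% of all genes were called higher and 3.85% lower), with a median of -0.01. RAPGEF5, the gene of an exchange factor that activates Rap, fell by 1.20 (SE 0.0955, edgeR adjusted p = 3.45e-06), from 24.6 to 10.7 CPM. RASGRP2, the gene of another Rap exchange factor, rose by 0.42 (SE 0.0724, adjusted p = 0.00298), and SIPA1, the gene of a Rap GTPase-activating protein related to SIPA1L1, by 0.30 (SE 0.0788, adjusted p = 0.0360). Both thus went the opposite way to SIPA1L1.

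With lnc-RTN4R-1 GapmeR1, 1 of the 23 rose and 0 fell, where 1.01% of all genes were called higher. It was RASSF5, the gene of a Rap effector, which rose by 0.28 (SE 0.0599, edgeR adjusted p = 0.0345). With lnc-ASTN1-1 GapmeR1 RASGRP2 rose by 0.33 (adjusted p = 0.0453), where 0.0399% of all genes were called higher, and 0 fell. In the other 3 comparisons edgeR called 0 of 23, with at most 1 at an unadjusted p under 0.05. With the replicate block, for which the shares of all genes are given above, 9 of the 23 were called with lnc-RTN4R-1 GapmeR2 (5 higher, 4 lower), 5 with lnc-RTN4R-1 GapmeR1 (4 higher, 1 lower), 3 with lnc-ASTN1-1 GapmeR1 (2 higher, 1 lower) and 0 elsewhere.

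Of 25 immunoglobulin superfamily and leucine-rich repeat relatives of IGSF10, 8 were tested. With lnc-RTN4R-1 GapmeR1, 1 rose and 0 fell (1.01% of all genes were called higher). It was LRIG1, the gene of an inhibitor of growth factor receptors, which rose by 0.41 (SE 0.0654, edgeR adjusted p = 0.00598). In the other 5 comparisons edgeR called 0 of 8, with 1 or 2 at an unadjusted p under 0.05. With the replicate block, 3 of the 8 were called with lnc-RTN4R-1 GapmeR2 (2 higher, 1 lower, beside 12.0% and 10.4% of all genes), 2 with lnc-RTN4R-1 GapmeR1 (both higher, beside 5.97%), 1 with lnc-ASTN1-1 GapmeR1 (higher) and 0 elsewhere. With lnc-RTN4R-1 GapmeR2 the median log2 fold change of this list was -0.02.

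The genes with the most similar pattern were found by Pearson's r between group means of log2 CPM over the 8 groups other than the lnc-NKX2-3-1 GapmeRs, among genes spanning at least 1 log2 unit. The groups share controls and days, so r is a description. For TENM4 these were G3BP1P1 (r = 0.986), IMMP2L (r = 0.965) and ENSG00000272827 (r = 0.951), of which IMMP2L, a mitochondrial peptidase gene, was at 4.70 CPM in the controls and the others below 1 CPM. For SIPA1L1 they were SYNE2 (r = 0.992), which encodes a nuclear envelope protein, RAPGEF5 (r = 0.981) and SDK1 (r = 0.976), an adhesion molecule gene. For IGSF10 they were RALGPS2 (r = 0.980), UTRN (r = 0.974), which encodes utrophin, and TAS2R31 (r = 0.971), at 1.10 CPM in the controls. Among the 3 genes themselves, r was 0.719 between TENM4 and SIPA1L1, 0.836 between TENM4 and IGSF10, and 0.919 between SIPA1L1 and IGSF10. Over these 8 groups the means spanned 1.07 log2 units for TENM4, 0.59 for SIPA1L1 and 0.74 for IGSF10. With lnc-RTN4R-1 GapmeR2, SIPA1L1 was at 63.15 CPM and IGSF10 at 146.4 CPM. In the rest of the 8 groups they stayed at 82.25 to 95.27 CPM and 208.5 to 244.3 CPM. For these genes r thus rests largely on that 1 group.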

How the data were processed

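Total RNA of REH cells was sequenced with a stranded protocol. The labels describe ribodepletion and the methods of the study poly-A selection. Per the labels, the authors aligned reads to hg38 with STAR, and the deposited values are raw counts of reads per gene, unstranded and for each strand. The annotation release is not given in the sources used here. Column 4, which held 95.2% to 95.4% of the reads of both strand columns, was used. Positions and exons came from GENCODE v44 (GRCh38), which matched 56434 of 60619 identifiers.

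The main test was the quasi-likelihood F test of edgeR (4.0.16, robust fit, R 4.3.3), with TMM scaling and filterByExpr (minimum count 10, minimum total 15). Each comparison was fitted to its own samples across all genes with no covariate, and p-values were adjusted by Benjamini-Hochberg (threshold 0.05). Standard errors came from the F statistics. Shares of all genes called are given for edgeR without and with the block, not for DESeq2 or unadjusted p-values. CPM used TMM library sizes over all 27 samples. Comparisons with the controls share the same 5 control samples. Alternatives were DESeq2 (1.42.0, the tool of the study), RLE scaling, no low-count filter, unstranded counts, the replicate number as a block, one fit of all samples, NTC only as controls, each sample left out in turn and, chosen after seeing the data, replicates 1 and 2 only. The fits were tested on simulated counts.

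The replicate numbers pair the samples, since the methods state different days. Samples of the same number deviated together from their group means (mean correlation 0.263 over 109 pairs and 16268 genes, against -0.130 over 218 pairs of different number). Deviations cancel out within a group, so the second value largely follows from the first and adds no separate evidence. The numbers come from the titles of the samples.

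GapmeR complements were searched on the transcribed strand of each annotated gene. The 3 genes, the gene lists and the named neighbors and look-alikes (by rules of distance and correlation) were chosen with earlier results of these data known. From each list, genes called with a single GapmeR were named, at most 4.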

Additional observations from a re-analysis of the deposited data

Results flagged for a closer look

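The effects of the GapmeRs against lnc-RTN4R-1 differed between each other for all 3 genes, by the direct edgeR test. The log2 difference of GapmeR1 minus GapmeR2 was 0.49 for TENM4 (adjusted p = 0.00615), 0.60 for SIPA1L1 (adjusted p = 0.00160) and 0.68 for IGSF10 (adjusted p = 0.000745). TENM4 was lower than in the controls with both GapmeRs, whereas the other genes were called with GapmeR2 only. No control sample was flagged as standing apart. The largest gap over the range was 0.393 for TENM4, 0.628 for SIPA1L1 and 0.589 for IGSF10, below the critical value of 0.71 for 5 samples. With so few samples, this check finds only a sample far from the rest.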

How the results depend on the processing

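The calls with a single lnc-RTN4R-1 GapmeR and between both kept their direction and side of the threshold under all alternatives run. Fits with the replicate block added calls for lnc-TIMM21-5 GapmeR1 (TENM4 -0.23, IGSF10 -0.21), for both lnc-TIMM21-5 GapmeRs pooled (TENM4 -0.17, IGSF10 -0.19), and for TENM4 with both lnc-ASTN1-1 GapmeRs pooled (-0.26) and between them (-0.19). The block changed no other call. In one fit of all samples, both lnc-RTN4R-1 GapmeRs pooled gave calls for SIPA1L1 (-0.20) and IGSF10 (-0.39). With NTC only, TENM4 lost its calls with lnc-RTN4R-1 pooled (-0.76) and lnc-ASTN1-1 GapmeR1 (-0.32), and with replicates 1 and 2 only the latter (-0.33). The cause was not tested.

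Leaving out 1 sample moved TENM4 with lnc-ASTN1-1 GapmeR1 between -0.37 and -0.31, with the call lost in 6 of 8 fits. Other signs turned only in values that passed no test. IGSF10 ranged from -0.17 to 0.0727 with lnc-ASTN1-1 GapmeR2, from -0.0822 to 0.0115 between the lnc-TIMM21-5 GapmeRs and from -0.11 to 0.13 between those of lnc-ASTN1-1. Between NTC and medium, TENM4 ranged from -0.15 to 0.0633, SIPA1L1 from -0.0115 to 0.0324 and IGSF10 from -0.0593 to 0.0202. Where a group kept 1 sample, it was assumed to vary like the others. The untested values with lnc-NKX2-3-1 GapmeR1 rest on 2 samples: for SIPA1L1 the difference from GapmeR2 was -2.83 without replicate 1 and -2.56 without replicate 2. Over all 10 groups, other genes were most similar, with r from 0.991 to 0.997 for the 3 of each gene. Depth limited lnc-NKX2-3-1, at 0 to 23 reads, more than the 3 genes, at 235 to 5103.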
